A study of Homo sapiens with 14 samples.

Results

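The circadian clock genes described here are RORA, NR1D1, NR1D2, PER1, PER2, PER3, CRY2, ARNTL, BHLHE40 and DBP, measured in colorectal cancer colonies grown for up to 15 days. They were chosen by name, with earlier results of these data known. RORA was taken as a gene the study treats as a target of the DNA demethylase TET2, and the others as parts of the clock. All 10 were found by symbol among the 36601 genes of the single-cell matrices and among the 60624 genes of the bulk tables, and all 10 passed the filter on low counts in each test described below. In the GENCODE 44 annotation of GRCh38 RORA spans bases 60488284 to 61229302 of chromosome 15 on the minus strand. Of the other 9 genes, NR1D1 and PER1 lie on chromosome 17, NR1D2 and BHLHE40 on 3, CRY2 and ARNTL on 11, PER2 on 2, PER3 on 1 and DBP on 19.

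The clock is a transcriptional loop that runs in most cells. ARNTL, also called BMAL1, pairs with CLOCK or NPAS2 at E-box sequences and drives the PER and CRY genes, whose proteins return to block that pair. A companion loop acts at ROR elements, where RORA activates and NR1D1 and NR1D2 (the REV-ERB receptors) repress genes such as ARNTL. BHLHE40 is an E-box repressor that low oxygen also induces in many cells, and DBP is an output activator that binds D-boxes. In the gut lining the clock is known for timing cell division and nutrient handling.

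The cells were SW620, a line from a metastasis of a colorectal cancer, which carried an empty FLAG vector as control (SW620-FLAG) or overexpressed the catalytic domain of TET2 (SW620-TET2CD). The sample labels call the control cultures SW620. Each line was grown in long-term colony culture (LTC) without passage and sampled for single-cell sequencing at days 6, 9, 12 and 15, with 1 library for each line and day, 8 in all. A further 6 bulk libraries held whole day 6 cultures of SW480 (a line from the primary tumour of the same patient) and of SW620, and day 15 cells taken inside or outside the colonies of SW620-FLAG and SW620-TET2CD. No source used here says whether the day 6 bulk SW620 culture carried the vector. Outside cells were those that passed a cell strainer after a short enzyme digestion. No condition has a second library, so the test of culture time used days as the samples of a stage. With a term for line fitted, its p-values hold the spread of days within a stage and how the lines differ from day to day. They do not hold the spread between parallel cultures. No source used here gives the hour of harvest. For genes that oscillate, day of culture and hour of day therefore cannot be told apart.

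Of 67056 barcodes, 48282 cells were kept, and their UMIs (unique molecular identifiers, 1 per captured transcript) summed to between 48186195 and 74185723 per library. Levels are given as CPM, the UMIs of a gene per 1000000 UMIs of those cells. A count of 3 UMIs, the limit that a count of 0 allows, equalled 0.0404 to 0.0623 CPM, and each of the 10 genes lay far above it in each library. TET2 was read at 2.11 to 3.90 CPM in the SW620-FLAG libraries and at 107, 59.5, 40.2 and 41.6 CPM in SW620-TET2CD on days 6, 9, 12 and 15, so the libraries matched their labels. UMIs of the transgene and of the endogenous gene were not told apart. The 9 colorectal epithelial markers summed to 9415 to 14041 CPM, against 5.92 to 32.1 CPM for 7 leukocyte markers, 8.49 to 28.8 CPM for 8 fibroblast markers and 0.379 to 2.61 CPM for 4 endothelial markers. The leukocyte sum was nearly all LYZ (5.32 to 31.5 CPM), while PTPRC, CD3E, MS4A1 and TYROBP had 0 to 3 UMIs per library. The fibroblast sum was mostly LUM (4.31 to 27.2 CPM) and COL1A1 (1.15 to 3.35 CPM), with COL1A2 and COL3A1 at 0 or 1 UMI and PDGFRA at 0 to 5. Pairs of libraries shared at most 23 cell barcodes.

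Sequences upstream of the start sites show where the loop's own elements stand in these genes, which is why a few are printed. RefSeq (GRCh38.p14) held 14 start sites for the 10 genes, and the 250 bases before each were searched on both strands for the E-box CACGTG, the D-box TTATGNAA and the ROR element core TNGGTCA. Each motif was found at 3 of the 14 sites, against 6.34% (E-box), 3.03% (D-box) and 8.16% (ROR element core) of all 35116 promoters of the same length. The second NR1D2 site held all 3 motifs. Its E-boxes began 155 and 105 bases before the start, its D-box 194 and its ROR core 133, the last 2 read on the opposite strand. The window lay at chr3:23945871-23946120 on the plus strand and covered no annotated exon of the gene. PER1 (chr17:8152405-8152654, minus strand) held an E-box 173 bases and a D-box 30 bases before the start, and 31 bases of its window belong to an exon of another PER1 transcript. BHLHE40 (chr3:4979187-4979436, plus strand) held an E-box 245 bases before the start. The remaining matches were a D-box at PER3, 177 bases before the start, and ROR cores at CRY2 (65 bases) and ARNTL (247 bases). The 3 windows that carry the E-boxes read as follows, 5′ to 3′ along the gene's strand, with the motifs in capitals.
NR1D2: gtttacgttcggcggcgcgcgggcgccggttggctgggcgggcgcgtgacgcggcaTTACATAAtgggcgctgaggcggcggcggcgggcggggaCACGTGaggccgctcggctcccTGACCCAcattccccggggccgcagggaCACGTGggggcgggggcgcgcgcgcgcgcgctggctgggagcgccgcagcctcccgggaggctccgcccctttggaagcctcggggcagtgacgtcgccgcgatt
PER1: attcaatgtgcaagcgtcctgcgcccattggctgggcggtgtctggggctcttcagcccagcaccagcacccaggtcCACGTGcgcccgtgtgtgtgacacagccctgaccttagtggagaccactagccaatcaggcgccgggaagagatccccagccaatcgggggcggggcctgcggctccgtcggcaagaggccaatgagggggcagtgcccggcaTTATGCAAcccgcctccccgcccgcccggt
BHLHE40: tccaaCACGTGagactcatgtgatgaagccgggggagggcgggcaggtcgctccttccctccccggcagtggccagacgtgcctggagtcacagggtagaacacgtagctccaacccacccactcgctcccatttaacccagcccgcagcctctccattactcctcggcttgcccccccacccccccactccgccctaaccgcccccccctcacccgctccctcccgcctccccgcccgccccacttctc
A match is a description of letters and not a bound site, and no binding was measured here.

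Averaged over the 8 libraries, BHLHE40 was read most often, at 61.2 CPM. NR1D2 (9.05 CPM), PER2 (8.06 CPM), NR1D1 (6.65 CPM) and RORA (5.29 CPM) followed. ARNTL (4.70 CPM), CRY2 (4.49 CPM), PER1 (4.15 CPM) and DBP (4.11 CPM) lay close together, and PER3 was lowest at 2.45 CPM. Only the step from BHLHE40 to NR1D2 exceeded the spread over the libraries, since the range of each later gene overlapped that of its neighbour. These are counts of transcript ends, and levels of different genes are compared per length further on, in the bulk libraries.

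**Figure D1:**
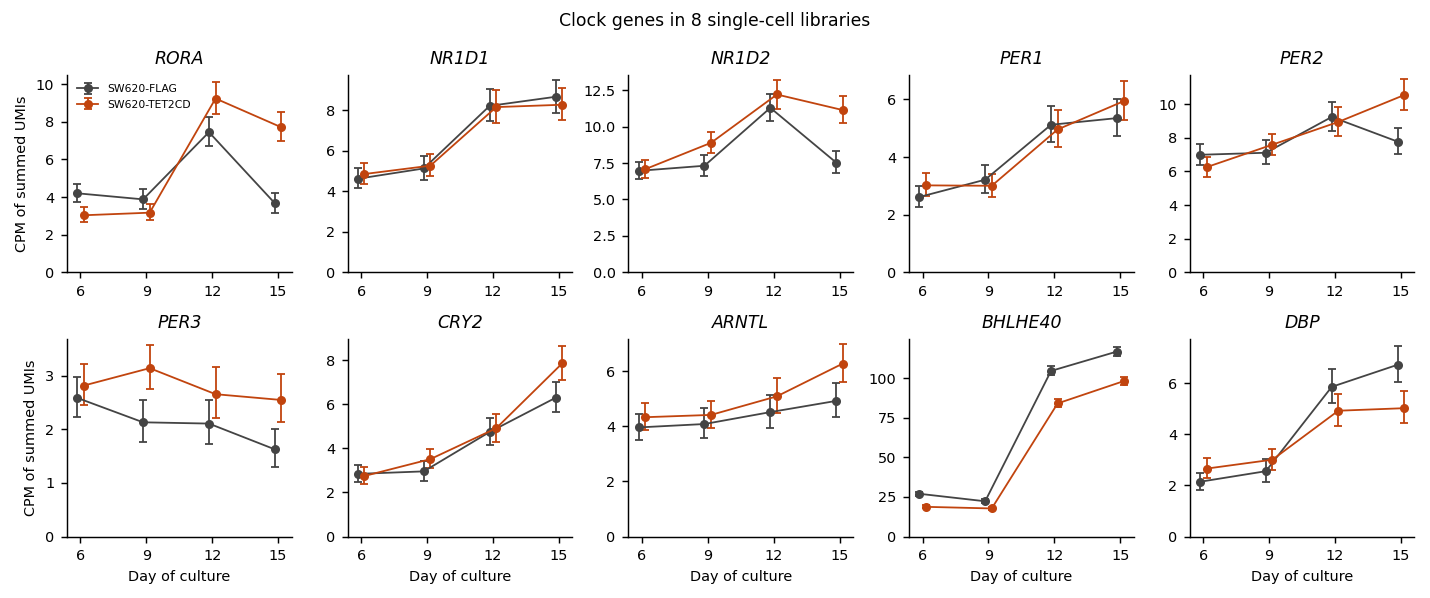
CPM of the 10 genes (y axis, from 0) by day of culture (x axis) in SW620-FLAG (grey) and SW620-TET2CD (red), 1 library per point. Bars are exact Poisson 95% intervals and cover counting error only. BHLHE40 lies at 17.7 to 27.0 CPM on days 6 and 9 and at 84.1 to 117 CPM on days 12 and 15.

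The first comparison asked which clock genes changed as colonies passed from early culture (days 6 and 9) to late culture (days 12 and 15). Among the nuclear receptors of the companion loop, RORA stood at 4.20, 3.88, 7.45 and 3.67 CPM on days 6, 9, 12 and 15 of SW620-FLAG, against 3.03, 3.17, 9.24 and 7.70 CPM in SW620-TET2CD. Day 12 was high in both lines, and the SW620-FLAG day 15 library lay among the early ones, so the stages overlapped. NR1D1 was read at 4.62, 5.13, 8.22 and 8.66 CPM in SW620-FLAG, against 4.85, 5.26, 8.16 and 8.27 CPM in SW620-TET2CD. Here each late library lay above each early one. NR1D2 was read at 6.96, 7.31, 11.3 and 7.53 CPM in SW620-FLAG, against 7.08, 8.89, 12.2 and 11.1 CPM in SW620-TET2CD, with the SW620-FLAG day 15 library again inside the early range. In edgeR's quasi-likelihood test over 16993 genes, RORA rose by 0.83 on the log2 scale (SE 0.24, adjusted p = 0.0120). NR1D1 rose by 0.64 (SE 0.13, adjusted p = 0.00182). NR1D2 rose by 0.36 (SE 0.14, adjusted p = 0.0458). The NR1D2 call was lost in 10 of 16 alternatives, among them the omission of any 1 of the 6 libraries of days 6, 9 and 12 (adjusted p 0.0627 to 0.169). RORA missed the threshold without the SW620-TET2CD day 6 library (log2 0.72, adjusted p = 0.0509).

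Of the negative limb, PER1 and CRY2 rose. PER1 was read at 2.61, 3.22, 5.12 and 5.35 CPM in SW620-FLAG, against 3.02, 3.00, 4.96 and 5.94 CPM in SW620-TET2CD. CRY2 was read at 2.85, 2.96, 4.75 and 6.30 CPM in SW620-FLAG, against 2.75, 3.51, 4.92 and 7.86 CPM in SW620-TET2CD. The stages did not overlap for either gene, and in both lines CRY2 was highest on day 15. The fitted rise was 0.74 on the log2 scale for PER1 (SE 0.15, adjusted p = 0.00155) and 0.87 for CRY2 (SE 0.18, adjusted p = 0.00245). PER2 lay at 6.25 to 7.59 CPM early and 7.77 to 10.5 CPM late, and its difference of 0.27 missed the threshold (adjusted p = 0.0761). PER3 lay at 2.13 to 3.14 CPM early and 1.63 to 2.66 CPM late, the only negative difference of the 10 genes (log2 -0.38, adjusted p = 0.0626). PER3 passed when the 8% of cells with most UMIs were left out (adjusted p = 0.0460).

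BHLHE40 had the largest difference. It was read at 27.0, 22.3, 105 and 117 CPM in SW620-FLAG, against 18.8, 17.7, 84.1 and 98.1 CPM in SW620-TET2CD, a clear gap between day 9 and day 12 in both lines. It rose by 2.13 on the log2 scale (SE 0.12, adjusted p = 6.9e-06). DBP, the output activator, was read at 2.14, 2.55, 5.85 and 6.72 CPM in SW620-FLAG, against 2.66, 3.00, 4.92 and 5.02 CPM in SW620-TET2CD, again without overlap. DBP rose by 1.01 (SE 0.19, adjusted p = 0.00113). ARNTL, which heads the loop, was read at 3.96 to 4.41 CPM early and at 4.51 to 6.27 CPM late, and its difference of 0.19 was not called (adjusted p = 0.247).

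In all, 7 of the 10 clock genes rose and 0 fell, where 29.4% of all genes tested rose. The median difference over the 10 was 0.69 on the log2 scale, against 0.04 over all genes. Since the 10 were chosen with earlier results of these data known, this contrast is a description. Upper-quartile scaling moved the median of all genes to 0.21 and the split of calls from 5001 higher and 4807 lower to 6413 higher and 3708 lower. Under it PER2 (log2 0.44, adjusted p = 0.0122) and ARNTL (log2 0.36, adjusted p = 0.0392) were called higher too, and the other 7 kept their calls. With the stages also moved the 24 genes of a hypoxia list, from 2920 to 3625 CPM early to 4302 to 6368 CPM late, and the 25 genes of a cell cycle list, from 3699 to 4202 CPM down to 613 to 1144 CPM. Each gene of both lists was detected in each library. The leukocyte sum went from 5.92 to 16.5 CPM early to 14.3 to 32.1 CPM late with LYZ, and the fibroblast sum from 16.7 to 28.8 CPM down to 8.49 to 12.9 CPM with LUM. COL1A1 of the fibroblast list rose instead, from 1.15 to 1.62 CPM early to 1.91 to 3.35 CPM late. The part of these 4 lists in the rise of the clock genes was not tested across libraries. Cells of 1 library that differ in the hypoxia or the cell cycle list are compared below.

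The wider clock was read from a list of 22 further genes, of which 18 could be tested, and 8 rose and 4 fell, where 29.4% of all genes tested rose and 28.3% fell. The median over the 18 was 0.33 on the log2 scale, against 0.04 over all genes. BHLHE41, the sister of BHLHE40, was read at 0.312 to 0.515 CPM early and 1.65 to 3.18 CPM late (log2 2.27, adjusted p = 5.15e-05). Both BHLHE repressors thus rose. NPAS2, the partner that can replace CLOCK, rose by 1.18 (adjusted p = 1.81e-04), while CLOCK itself showed 0.26 (adjusted p = 0.0957). NFIL3, a repressor at D-boxes, rose by 0.92, KLF9 by 2.37, the PER kinases CSNK1D and CSNK1E by 0.30 and 0.39, and the ubiquitin ligase subunit FBXW11 by 0.45. The 4 that fell were TIMELESS (log2 -2.22) and TIPIN (log2 -2.09), whose products protect the replication fork, ARNTL2 (log2 -0.99) and NOCT (log2 -0.80). The RNAs of both fork proteins were also higher in the cells with most cell cycle RNA, as given below. RORB, HLF, CIART and USP2 were too low to test.

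**Figure D2:**
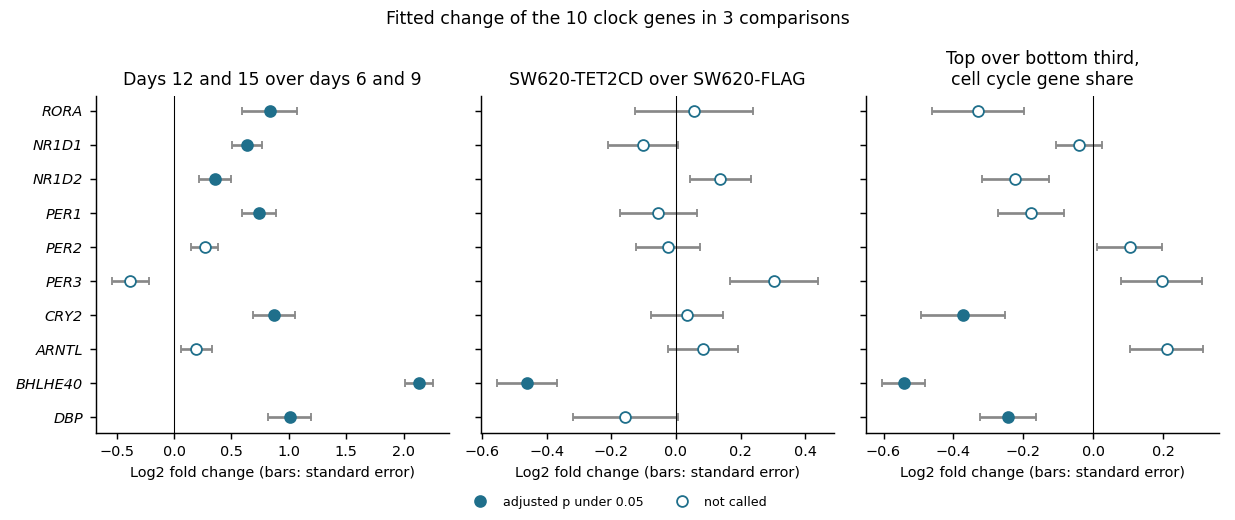
Fitted log2 fold change of the 10 genes (x axis) in 3 comparisons: late over early days, SW620-TET2CD over SW620-FLAG, and cells with the most over cells with the least cell cycle RNA. Bars are standard errors and filled points passed an adjusted p of 0.05: 7 in the left panel, 1 in the middle and 3 in the right.

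The second comparison set SW620-TET2CD against SW620-FLAG, with each day as its own block. Each line had 1 library per day, so the 4 days were the only replicates. The TET2 catalytic domain and other differences between the lines or their cultures cannot be told apart here. BHLHE40 was the 1 clock gene of the 10 called. It was lower in SW620-TET2CD on each of the 4 days (18.8 against 27.0 CPM, 17.7 against 22.3, 84.1 against 105 and 98.1 against 117), a fall by 0.46 on the log2 scale (SE 0.09, adjusted p = 0.0146). Of all 17478 genes tested, 1.84% were called lower. The BHLHE40 call was lost when no day term was fitted and when any 1 of the 4 libraries of days 6 and 9 was left out (adjusted p 0.0970 to 0.115), while the difference stayed between -0.49 and -0.44. RORA differed by 0.06 between the lines (SE 0.18, adjusted p = 0.932) and was lower in SW620-TET2CD on days 6 and 9 and higher on days 12 and 15. PER3 was higher in SW620-TET2CD on each day (2.82 against 2.59 CPM, 3.14 against 2.13, 2.66 against 2.11 and 2.55 against 1.63), and its difference of 0.30 passed only before adjustment (adjusted p = 0.322). Of the other 18 clock genes tested, KLF9 was called, where 2.48% of all genes were called higher. It stood at 0.377, 0.331, 0.996 and 2.78 CPM in SW620-TET2CD against 0.149, 0.110, 0.335 and 1.29 CPM in SW620-FLAG (log2 1.18, SE 0.23, adjusted p = 0.0128). That call was lost without any 1 of the libraries of days 9 and 12 (adjusted p 0.0563 to 0.0709) and with no day term. The leukocyte sum was higher in SW620-TET2CD on each day (13.4 against 5.92 CPM, 16.5 against 7.06, 20.5 against 14.3 and 32.1 against 21.0), as was the endothelial sum (0.992 to 2.61 against 0.379 to 0.611 CPM). Of the endothelial markers, PECAM1 and CLDN5 were higher in SW620-TET2CD on each day. VWF was lower there on days 6 and 9 (0.121 against 0.163 and 0.152 against 0.221 CPM) and higher on days 12 and 15. The fibroblast sum was lower on each day, at 8.49 to 20.3 against 10.8 to 28.8 CPM, as was LUM. COL1A1 of that list went the other way on each day, at 1.46 to 3.35 against 1.15 to 2.72 CPM. The part of these lists in the differences between the lines was not tested.

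Whether the change from early to late differed between the lines was tested by an interaction term. RORA had the largest one among the 10 genes, with a rise greater by 0.91 on the log2 scale in SW620-TET2CD (SE 0.41, unadjusted p = 0.0490, adjusted p = 1.000), the 1 unadjusted p under 0.05 among them. DBP had -0.73 (SE 0.33, unadjusted p = 0.0526). With edgeR, 0 of the 10 genes and 0.0% of all 17478 genes were called, as with DESeq2, while 141 genes of all had an unadjusted p under 0.05. The RORA value was 0.53 without the SW620-FLAG day 15 library and 1.38 without the SW620-FLAG day 12 library.

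A further comparison looked within libraries. Cells of each library were ranked by the share of their UMIs from the 24 hypoxia genes, none of which is a clock gene named here, and cut into 3 classes of equal size. The top class, called hypoxia-high, was set against the bottom class, called hypoxia-low, with 1298 to 2718 cells in each. These classes are ranges of a score and not cell types, and 18363 of the 48282 cells lay within 10% of a limit between classes. Such cells made up 37.5% to 60.1% of each early library and 21.2% to 24.8% of each late one. Over all 8 libraries 0 of the 10 genes was called by edgeR, with 5 at an unadjusted p under 0.05 and 2 called by DESeq2 (BHLHE40 and ARNTL). Of all 15760 genes edgeR called 14.6% in either direction, 4998 had an unadjusted p under 0.05 and DESeq2 called 2875. The ranges of the values differed by stage, and the stages were then fitted apart, a step added after the data had been seen.

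On days 12 and 15, BHLHE40 was read in hypoxia-high and hypoxia-low cells at 180 and 53.2 CPM (SW620-FLAG day 12), 177 and 78.5 (SW620-FLAG day 15), 154.5 and 37.3 (SW620-TET2CD day 12) and 173 and 54.9 (SW620-TET2CD day 15). RORA was read at 13.0 and 4.79, 6.30 and 2.01, 15.6 and 4.85, and 11.2 and 6.63 CPM in the same 4 libraries. Both genes were higher in the hypoxia-high cells of each late library. ARNTL was read at 6.88 and 3.19, 6.03 and 3.97, 8.39 and 3.35, and 9.51 and 4.57 CPM, with no overlap between the classes. CRY2 was read at 5.74 and 4.29, 8.04 and 5.25, 6.08 and 3.85, and 12.7 and 5.03 CPM. NR1D1 lay at 9.24 to 10.7 CPM in hypoxia-high and at 6.30 to 8.27 CPM in hypoxia-low cells. These 5 genes were called higher: RORA by 1.40 on the log2 scale (SE 0.16, adjusted p = 3.64e-05), BHLHE40 by 1.71 (SE 0.10, adjusted p = 8.06e-07), ARNTL by 1.08 (SE 0.14, adjusted p = 9.92e-05), CRY2 by 0.84 (SE 0.16, adjusted p = 0.00144) and NR1D1 by 0.52 (SE 0.12, adjusted p = 0.00429). Of 15128 genes tested, 23.7% were called higher.

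NR1D2 and PER3 went the other way. NR1D2 was read in hypoxia-high and hypoxia-low cells at 8.81 and 13.8, 6.23 and 8.74, 9.12 and 13.4, and 9.89 and 12.5 CPM in SW620-FLAG days 12 and 15 and SW620-TET2CD days 12 and 15. PER3 was read at 1.47 and 2.20, 1.14 and 1.64, 2.03 and 3.07, and 1.28 and 3.24 CPM. Each hypoxia-high class was below the hypoxia-low class of its own library. NR1D2 fell by 0.45 on the log2 scale (SE 0.11, adjusted p = 0.00589) and PER3 by 0.71 (SE 0.21, adjusted p = 0.0177), where 22.3% of genes were called lower. The sister receptors NR1D1 and NR1D2, both repressors at ROR elements, thus moved in opposite directions across the same cells. DESeq2 called 6 of the 7, without PER3, and 5367 of all 15128 genes.

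On days 6 and 9 the same ranking gave other values. BHLHE40 was read in hypoxia-high and hypoxia-low cells at 24.1 and 31.0, 28.3 and 20.1, 17.1 and 22.1, and 18.2 and 19.4 CPM in SW620-FLAG days 6 and 9 and SW620-TET2CD days 6 and 9. RORA was read at 4.14 and 4.45, 4.31 and 4.06, 2.33 and 3.96, and 2.71 and 3.97 CPM. Neither gene was higher in hypoxia-high cells in more than 1 of the 4 early libraries. With edgeR 0 of the 10 genes was called early, 1 (PER1, log2 -0.30) had an unadjusted p under 0.05, and DESeq2 called 0. Of all 14912 genes edgeR called 31.5% in either direction, 6425 had an unadjusted p under 0.05 and DESeq2 called 2731.

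The difference between the stages was tested as an interaction, with each library as a block. It was 1.55 for RORA (SE 0.23, adjusted p = 1.13e-04), 1.65 for BHLHE40 (SE 0.17, adjusted p = 7.29e-06), 0.98 for ARNTL (SE 0.22, adjusted p = 0.00204), 0.84 for CRY2 (SE 0.22, adjusted p = 0.00610) and 0.44 for NR1D1 (SE 0.16, adjusted p = 0.0365), each greater on the late days. It was -0.42 for NR1D2 (SE 0.14, adjusted p = 0.0234) and -0.75 for PER3 (SE 0.24, adjusted p = 0.0199). Of 15760 genes, 19.1% were called higher and 23.4% lower, beside 5 and 2 of the 10 genes. RORA, BHLHE40, ARNTL and CRY2 kept their calls with DESeq2 and without any 1 library. NR1D1 lost it without any 1 of 5 libraries (SW620-FLAG days 6 and 12, SW620-TET2CD days 6, 9 and 12, adjusted p 0.0591 to 0.113), NR1D2 without SW620-FLAG day 9 or 12 or SW620-TET2CD day 6 (0.0586 to 0.0803) and PER3 without SW620-TET2CD day 15 (0.0770). PER1, not called in full (log2 0.46, adjusted p = 0.0608), passed without either day 15 library.

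The ranking separated cells less on early days. The median share of hypoxia UMIs in hypoxia-high cells was 0.360% to 0.479% early and 0.686% to 1.05% late, and in hypoxia-low cells 0.195% to 0.263% and 0.210% to 0.317%. Depth moved with the classes, in opposite directions by stage. Hypoxia-high cells were the shallower ones in 4 of 4 late libraries, at a median of 5879 to 11326 against 7914 to 14272 UMIs, and the deeper ones in 4 of 4 early libraries, at 6625 to 14600 against 6185 to 12014 UMIs. The interaction was therefore refitted, after the data had been seen, among cells of 4000 to 12000 UMIs alone. It was called there for RORA (log2 1.70, adjusted p = 8.09e-05), BHLHE40 (1.45, adjusted p = 2.33e-06), ARNTL (1.02, adjusted p = 0.00480), CRY2 (0.92, adjusted p = 0.0208), NR1D2 (-0.54, adjusted p = 0.0421) and PER1 (0.71, adjusted p = 0.0300). It was not called for NR1D1 (0.32, adjusted p = 0.219) or PER3 (-0.49, adjusted p = 0.277). Of 14949 genes tested in the band, 17.9% were called higher and 20.3% lower. Within the early libraries PER1 was lower in hypoxia-high cells of that band (log2 -0.60, adjusted p = 0.0439), a call not made over all early cells. In that early band 6.7% of genes were called lower. Within the late ones 6 of the 7 calls were made again, without PER3 (adjusted p = 0.117), where 23.9% of genes were called higher and 24.7% lower. The band narrowed the gap in depth without closing it, with medians of 6137 to 9240 against 7768 to 10448 UMIs late and 6733 to 10562 against 6310 to 9836 UMIs early. In single late libraries of the band, RORA, BHLHE40, ARNTL and NR1D1 were higher in the hypoxia-high class of 4 of 4, CRY2 of 3 of 4, and NR1D2 lower in 4 of 4 and PER3 in 3 of 4. RORA then lay at 6.26 to 22.7 CPM in hypoxia-high and 2.13 to 6.58 CPM in hypoxia-low cells. The list sums that follow are over all cells of the classes unless the band is named. The cell cycle list stood at 631 to 1012 CPM in late hypoxia-high and at 578 to 1237 CPM in late hypoxia-low cells, higher in the former in 1 of 4 libraries. In the band its ratios were 1.05 and 0.979 in SW620-FLAG days 12 and 15, and 1.01 and 0.907 in SW620-TET2CD. On days 6 and 9 its ratios over all cells were 1.09 and 0.956 in SW620-FLAG, and 1.10 and 1.16 in SW620-TET2CD. In the early band they were 1.69 and 0.953 in SW620-FLAG, and 1.09 and 1.35 in SW620-TET2CD. The epithelial markers were higher in the hypoxia-high class of each late library, at 11655 to 16575 against 7663 to 11935 CPM. The leukocyte sum was higher in the hypoxia-high class of each late library, at 19.8 and 11.3, 23.1 and 17.3, 27.6 and 16.5, and 45.5 and 23.2 CPM, and lower in that of each early library (ratios of 0.481 to 0.875). In the band its early ratios were 0.389 and 0.726 in SW620-FLAG days 6 and 9, and 0.610 and 1.04 in SW620-TET2CD. In the late classes MS4A1 was at 0 throughout, and LYZ ran 19.3 to 44.9 CPM in hypoxia-high and 10.5 to 22.6 CPM in hypoxia-low cells. The part of the cell cycle, epithelial and leukocyte lists in the clock genes' differences was not tested.

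**Figure D3:**
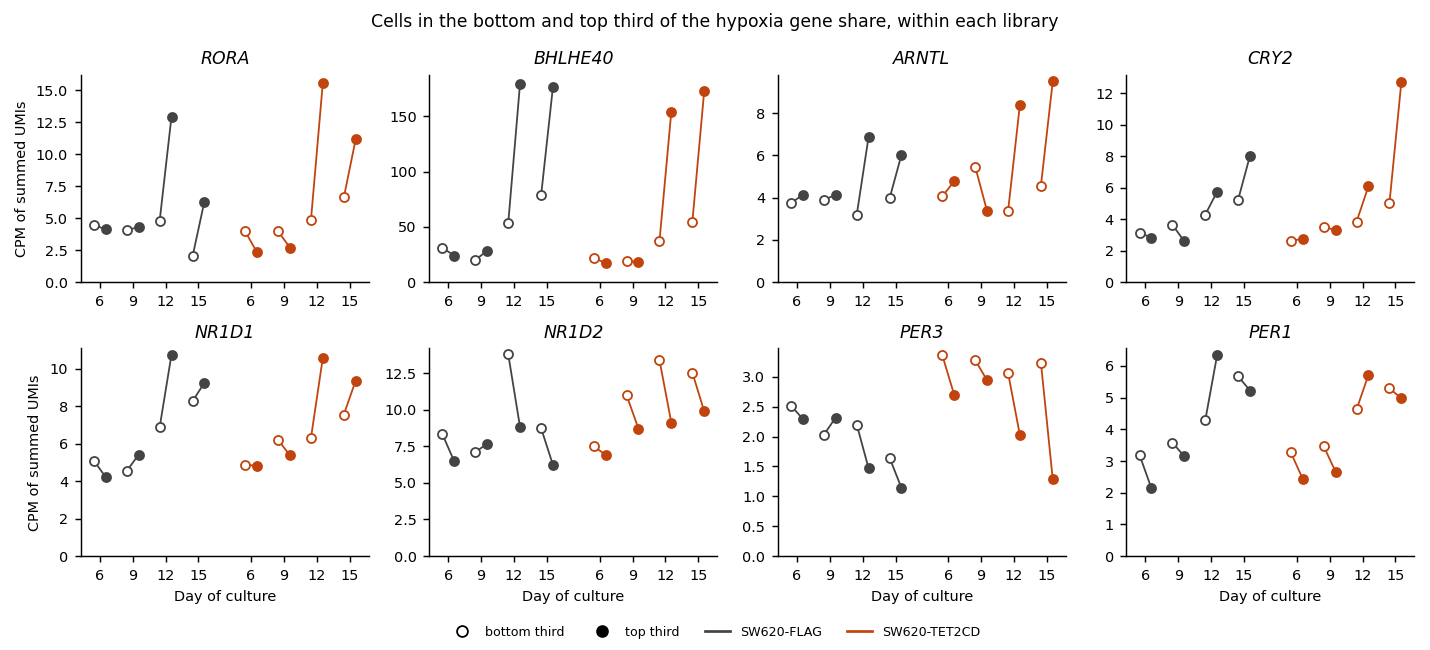
CPM (y axis, from 0) of 8 clock genes in hypoxia-low (open) and hypoxia-high (filled) cells, joined within each library, by day of culture (x axis) for SW620-FLAG (grey, left) and SW620-TET2CD (red, right). RORA, BHLHE40, ARNTL, CRY2 and NR1D1 climb from low to high on days 12 and 15, while NR1D2 and PER3 descend.

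Of the wider clock, 1 of 16 tested genes passed on days 6 and 9 (TIPIN, log2 0.45, higher in hypoxia-high cells), where 31.5% of all genes passed. In the late libraries 9 of 18 tested genes were called higher in hypoxia-high cells and 4 lower, against 23.7% and 22.3% of all genes. NFIL3 was read at 28.1 to 40.2 CPM in late hypoxia-high and 11.1 to 16.3 CPM in late hypoxia-low cells (log2 1.32, adjusted p = 9.99e-06). NPAS2 showed 0.68, BHLHE41 1.05, KLF9 1.24, CSNK1D 0.62 and CSNK1E 0.43, with the ubiquitin ligase subunit BTRC (0.28) and the kinase GSK3B (0.33) also called. Among those lower were TIMELESS (-0.87), TIPIN (-0.73) and ARNTL2 (-0.50).

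Ranking the cells of each library by the 25 cell cycle genes in the same way gave 3 calls, all lower in the top class, where 21.8% of 15756 genes were called lower. The median share of cell cycle UMIs in the top class was 0.562% to 0.606% early and 0.0547% to 0.193% late. In the bottom class it was 0.0757% to 0.192% early and 0% to 0.00871% late. Late top classes thus overlapped early bottom classes in their share, and the contrast differed by stage. BHLHE40 lay at 17.1 to 102 CPM in the top classes and 21.6 to 126 CPM in the bottom classes, lower in 8 of 8 libraries (log2 -0.54, SE 0.06, adjusted p = 3.92e-05). CRY2 was lower in 7 of 8 (log2 -0.37, SE 0.12, adjusted p = 0.0242) and DBP in 8 of 8 (log2 -0.24, SE 0.08, adjusted p = 0.0282). Between the outer 10% of cells BHLHE40 showed -0.97 and CRY2 -0.94 (adjusted p = 8.4e-04), and both were called. The CRY2 and DBP calls were lost under several alternatives. CRY2 lost its call among cells of 4000 to 12000 UMIs (adjusted p = 0.0767) and without SW620-FLAG day 9 or 15 or SW620-TET2CD day 12 or 15 (0.0544 to 0.0638). DBP lost its call with DESeq2 (0.135), within that depth band (0.323), between the outer 10% of cells (0.595) and without any 1 of 5 libraries (0.0503 to 0.0903). The hypoxia list was lower in the top class of each late library, at 3977 to 5906 against 4463 to 7052 CPM, and higher in that of 3 of 4 early libraries, at 2951 to 3537 against 2727 to 3773 CPM over the 4. The epithelial markers (ratios of 0.758 to 0.990) and the leukocyte sum (0.651 to 0.990) were lower in the top class of 8 of 8 libraries, the fibroblast sum in 7 and the endothelial sum in 5. Cells of the top class were deeper in 8 of 8, with a median of 7556 to 14588 against 5346 to 12440 UMIs. The part of these in the clock genes' differences was not tested beyond the depth band. TIMELESS (log2 1.37) and TIPIN (log2 0.65) were called higher in the top class, as were 20.6% of all genes.

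The next comparison took the SW620-TET2CD libraries and set 5603 cells with at least 1 TET2 UMI against 18780 without. RORA was read at 4.27 against 2.50 CPM on day 6, 6.32 against 2.10 on day 9, 13.4 against 8.15 on day 12 and 14.1 against 6.13 on day 15. It was higher in the cells with TET2 UMIs on 4 of 4 days, and the cells without lay below SW620-FLAG on days 6 and 9 (4.20 and 3.88 CPM) and above it on days 12 and 15 (7.45 and 3.67 CPM). On day 12 the cells without (8.15 CPM) lay inside the 95% counting interval of SW620-FLAG, 6.72 to 8.24 CPM. PER3 was read at 3.55 against 2.50, 5.18 against 2.45, 4.55 against 2.17 and 3.68 against 2.27 CPM, likewise higher on 4 of 4 days. DBP was read at 3.41 to 6.27 CPM in cells with TET2 UMIs and 2.33 to 4.71 CPM in cells without. RORA was higher by 0.95 on the log2 scale (SE 0.13, adjusted p = 8e-05), PER3 by 0.73 (SE 0.14, adjusted p = 0.00161) and DBP by 0.36 (SE 0.11, adjusted p = 0.0281), where 9.11% of 16565 genes were called higher.

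BHLHE40 was lower in the cells with TET2 UMIs, at 15.5 against 20.2, 14.0 against 19.0, 80.5 against 85.0 and 84.3 against 102 CPM (log2 -0.37, SE 0.06, adjusted p = 5.09e-04), where 12.0% of genes were called lower. Both classes were below SW620-FLAG on each day. The other 6 genes were not called, with differences from -0.14 (CRY2) to 0.14 (ARNTL). Cells with TET2 UMIs had more UMIs, a median of 9262 to 13007 against 8042 to 12218. Among cells of 4000 to 12000 UMIs RORA and PER3 were still higher on 4 of 4 days, with ratios of 1.43 to 3.44 and 1.75 to 3.15. DBP lost its call there (adjusted p = 0.564), with DESeq2 (0.152) and without the day 6, 9 or 12 library (0.0769 to 0.103). The hypoxia list stood at 2913 to 6285 CPM in cells with and 2923 to 6390 CPM in cells without TET2 UMIs. It was lower in the former on 4 of 4 days, with ratios of 0.928 to 0.997. The cell cycle list had ratios of 0.989, 1.01, 0.940 and 1.32 on days 6, 9, 12 and 15. The leukocyte, endothelial and fibroblast sums also moved with the classes on 4 of 4 days. The leukocyte sum was higher in cells with TET2 UMIs, at 26.6 against 7.76, 33.1 against 10.8, 39.5 against 15.6 and 53.8 against 26.8 CPM, nearly all of it LYZ, with MS4A1 and TYROBP at 0. The endothelial sum was higher too, at 2.56 to 7.67 against 0.461 to 1.37 CPM. PECAM1 stood at 1.21 to 2.83 against 0.209 to 0.597 CPM, while the ranges of VWF overlapped. The fibroblast sum was lower, with ratios of 0.694 to 0.855. The part of these lists in the clock genes' differences was not tested. Of the wider clock, KLF9 was called, at 0.764, 0.709, 2.33 and 5.28 CPM against 0.212, 0.203, 0.653 and 2.17 CPM (log2 1.46, adjusted p = 1.42e-04).

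**Figure D4:**
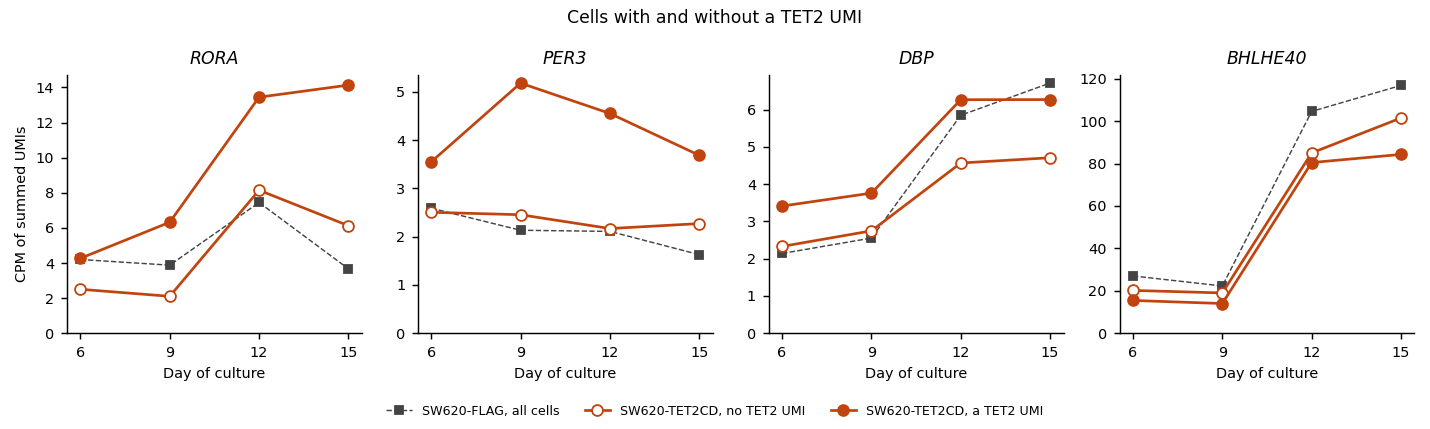
CPM (y axis, from 0) of RORA, PER3, DBP and BHLHE40 by day of culture (x axis) in SW620-TET2CD cells with a TET2 UMI (filled red), SW620-TET2CD cells without one (open red) and all SW620-FLAG cells (grey squares). RORA in cells with TET2 UMIs lies at 4.27 to 14.1 CPM, above the cells without on each day.

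The bulk libraries give levels per transcript length, as TPM, and so allow genes to be ranked. BHLHE40 was again highest, at 56.7 to 82.8 TPM, and the other 9 genes lay between 0.67 and 22.3 TPM. In bulk RNA, fewer cells that express a gene and less of its RNA per cell cannot be told apart. Some bulk reads may also belong to genes on the opposite strand, since the kit does not mark strand: THRA covers 18.0% of the exon bases of NR1D1, BHLHE40-AS1 12.8% of BHLHE40, UTS2 10.7% of PER3 and SPHK2 10.2% of DBP.

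On day 6, SW480 and SW620 differed most in RORA, at 7.54 TPM in SW480 and 0.67 TPM in SW620 (log2 ratio 3.31 with a pseudocount of 0.1). NR1D1 stood at 22.3 and 7.09 TPM, NR1D2 at 18.1 and 4.86 TPM and DBP at 8.16 and 2.66 TPM. PER2 and CRY2 went the other way, at 1.64 and 3.47 TPM and at 4.73 and 10.3 TPM. These 6 genes were at least 2-fold apart, 4 higher and 2 lower in SW480, where 19.8% of 18263 genes were as much higher and 14.3% as much lower. ARNTL (17.0 and 8.56 TPM) and PER3 (3.95 and 1.98 TPM) lay just short of that ratio, and PER1 (11.1 and 11.5 TPM) and BHLHE40 (71.0 and 72.1 TPM) were close. Under a pseudocount of 1 the log2 ratio of RORA was 2.35, and PER2 (-0.76) and CRY2 (-0.97) fell short of 2-fold. With 1 library each, these ratios have no test.

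On day 15, RORA was read at 2.58 TPM inside and 2.83 TPM outside the colonies of SW620-FLAG, and at 2.51 TPM inside and 8.27 TPM outside those of SW620-TET2CD. The outside SW620-TET2CD library stood alone, with the other 3 close together. It also held 124 TPM of TET2 against 38.1 TPM inside. The 4 endothelial markers summed to 30.7 TPM there, against at most 2.12 TPM elsewhere. That sum was mostly CLDN5 (25.1 TPM) with PECAM1 (5.06 TPM), while CDH5 reached at most 0.07 TPM and VWF 0.95 TPM in any bulk library. The part of TET2 or of these markers in the RORA value was not tested. ARNTL ran 4.58 and 3.76 TPM in SW620-FLAG and 5.75 and 8.84 TPM in SW620-TET2CD. PER3 ran 1.73 and 1.18 TPM and 2.00 and 3.05 TPM. For both, outside was lower than inside in SW620-FLAG and higher in SW620-TET2CD. CRY2 was lower outside in both lines, at 12.6 and 7.52 TPM and at 12.0 and 8.79 TPM. RORA in SW620-TET2CD was the 1 gene of the 10 at least 2-fold apart between locations, where 8.79% of all genes were as much higher outside and 3.91% as much lower. In SW620-FLAG 0 of the 10 were, against 2.19% and 3.01% of all genes.

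The tests of the 4 day 15 bulk libraries, with a single residual degree of freedom and the spread shared across genes, called 0 of the 10 genes for location. DESeq2 also called 0, and 0 had an unadjusted p under 0.05. Of all 17722 genes edgeR called 0.0%, with 1068 at an unadjusted p under 0.05 and 22 called by DESeq2. Between the lines edgeR and DESeq2 also called 0 of the 10, and 0.412% of all genes were called by edgeR. PER3 (log2 0.86, SE 0.29), ARNTL (0.55, SE 0.20) and NR1D2 (0.45, SE 0.11) had unadjusted p under 0.05, with adjusted p of 0.215, 0.237 and 0.134. An unadjusted p under 0.05 was common, found for 3536 of all 17722 genes. BHLHE40 ran 56.7 and 60.2 TPM in SW620-FLAG and 82.8 and 68.4 TPM in SW620-TET2CD (log2 0.36, adjusted p = 0.261), the opposite sign to its lower single-cell values. KLF9, called in the same test (log2 4.82, SE 0.34, adjusted p = 0.0344), was read at 0.03 and 0.13 TPM in SW620-FLAG, against 0.74 and 4.09 TPM in SW620-TET2CD.

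Bulk and single-cell values also parted over time for some genes. Bulk BHLHE40 stood at 72.1 TPM on day 6 in SW620 and at 56.7 to 82.8 TPM on day 15, where single cells showed a rise by 2.13 on the log2 scale. The hypoxia list did likewise, at 4667 TPM on day 6 and 3537 to 6136 TPM on day 15, and the part of this in the BHLHE40 value was not tested. Among the other genes, values on day 15 are given for SW620-FLAG inside and outside and then SW620-TET2CD inside and outside. PER1 stood at 11.54 TPM on day 6 in SW620 and at 7.25, 8.48, 11.55 and 9.31 TPM on day 15. DBP stood at 2.66 TPM and then at 1.62, 1.81, 2.84 and 3.44 TPM. ARNTL stood at 8.56 TPM and then at 4.58, 3.76, 5.75 and 8.84 TPM. All 3 were lower than SW620 on day 6 in both SW620-FLAG libraries. Of the SW620-TET2CD libraries both were above SW620 on day 6 for DBP and 1 for ARNTL, while for PER1 the inside library was level with it. NR1D1 (7.09 TPM, then 8.27 to 11.85), NR1D2 (4.86 TPM, then 7.41 to 10.39) and PER2 (3.47 TPM, then 3.87 to 6.73) were higher in each of the 4 libraries of day 15. CRY2 lay on either side of 10.25 TPM, at 7.52 to 12.56, and PER3 on either side of 1.98 TPM, at 1.18 to 3.05. Bulk RORA stood at 0.67 TPM on day 6 in SW620 and at 2.51 to 8.27 TPM on day 15, while in single cells it ran 4.20 CPM on day 6 and 3.67 CPM on day 15 in SW620-FLAG, against 3.03 and 7.70 CPM in SW620-TET2CD. The bulk cell cycle list was lower on day 15, at 538 to 1190 TPM against 3011 to 4048 TPM in the day 6 libraries. With 1 library per condition these values over time have no test.

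**Figure D5:**
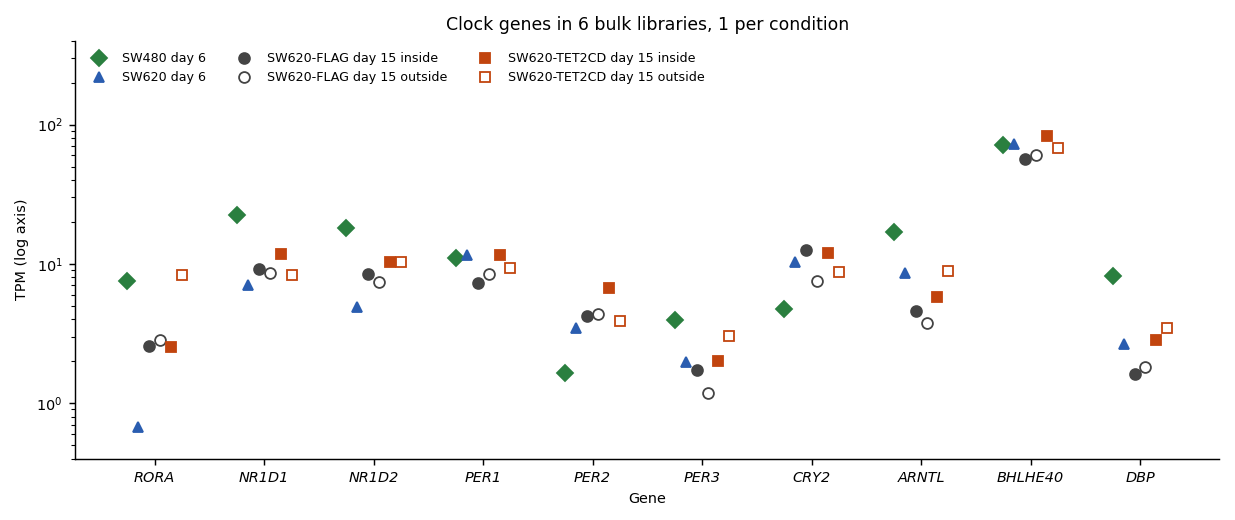
TPM (y axis, log scale) of the 10 genes (x axis) in 6 bulk libraries, 1 per condition and without error bars. For RORA the SW620-TET2CD outside library (8.27 TPM) and SW480 (7.54 TPM) lie above the other 4 libraries, which run from 0.67 to 2.83 TPM.

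RORA's pattern over the 8 single-cell libraries was last compared with that of other genes, as a Pearson correlation of log2(CPM + 1). These 8 points share lines and days, and the values are descriptions. Among 8713 genes with a mean of at least 8 CPM the 5 closest included TBC1D23 (r = 0.970), NIPSNAP2 (r = 0.959), UPRT (r = 0.954) and MBP (r = 0.941). TBC1D23 ran from 22.3 to 34.0 CPM and, like RORA, was highest in SW620-TET2CD day 12 and low in SW620-FLAG day 15 (23.3 CPM). With a pseudocount of 0.1 the same 5 led, and only 1 of them did once genes down to a mean of 1 CPM were admitted. Among the clock genes NR1D2 (r = 0.89) and PER2 (r = 0.85) followed RORA most closely, BHLHE40 stood at r = 0.72 and PER3 at r = -0.05. Many other genes followed RORA as closely. In a wider ranking of 13256 genes NR1D2 stood at place 147, PER2 at 373 and BHLHE40 at 2030.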

How the data were processed

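The authors deposited, for 8 single-cell libraries, matrices of UMI counts made with Cell Ranger 4.0 on GRCh38, and, for 6 bulk libraries, RSEM tables of expected counts and TPM. The submitters' processing notes name Bowtie and mm10 for the bulk libraries with no role given, although the tables hold human genes. The bulk annotation is not given in any source used here. The clock genes and gene lists were chosen with earlier results of these data known.

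Barcodes were kept (48282 of 67056) when they held between 200 and 4500 genes, between 1000 and 20000 UMIs and a mitochondrial share of 10% or less, and doublets were not called. Summed counts were tested with edgeR 4.0.16 (quasi-likelihood, TMM, filterByExpr, R 4.3.3) over all genes. Stage was fitted with a term for line, line with a term for day, and cell classes with a term for library. Hypoxia genes were left out of the hypoxia tests, cell cycle genes of the cell cycle tests. P-values are Benjamini-Hochberg adjusted unless called unadjusted, and a call is an adjusted p under 0.05. Bulk expected counts (16470176 to 25840563 per library) were rounded for the test. DESeq2 1.42.0, other scalings, other cell filters, the cell classes' limits and the omission of each library served as alternatives. Scripts were tested on simulated data. Intervals and the limit of 3 counts cover counting error only. The genes named were the 10 clock genes, tested genes of the wider clock list and the 5 genes most like RORA, a few of which are not reported here. Figures used matplotlib 3.10.9.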

Additional observations from a re-analysis of the deposited data

Results flagged for a closer look

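The change from hypoxia-low to hypoxia-high cells differed between days 12 and 15 and days 6 and 9 for 7 of the 10 clock genes, by an interaction term in edgeR that was added after the data had been seen. The late change exceeded the early one by 1.55 for RORA, 1.65 for BHLHE40, 0.98 for ARNTL, 0.84 for CRY2 and 0.44 for NR1D1 on the log2 scale. It lay below the early one for NR1D2 (-0.42) and PER3 (-0.75). Such differences were common, with 19.1% of 15760 genes called higher and 23.4% lower, beside 5 and 2 of the 10. Among cells of 4000 to 12000 UMIs alone, NR1D1 (adjusted p = 0.219) and PER3 (adjusted p = 0.277) were not called.

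Of the wider clock, the same difference was positive for NPAS2 (0.70), NFIL3 (1.21), CSNK1D (0.47), CSNK1E (0.36) and GSK3B (0.33). It was negative for ARNTL2 (-0.69), TIMELESS (-1.09) and TIPIN (-1.24).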

How the results depend on the processing

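Over 940 values of single clock genes under an alternative, 816 kept their direction and their side of the threshold, 48 stayed uncalled with the other sign, 48 lost a call, 28 gained one and 0 calls reversed. For the difference between the lines, 0 clock genes were called with no day term (46 of all 16526 genes), and 0 to 1 without 1 library (440 to 774 of all genes). In bulk, 1 was called between the lines with every gene kept (2239 of all 31544 genes). For the hypoxia classes over all days (0 called), DESeq2 called 2 (2875 of all 15760 genes) and the outer 10% of cells gave 2 (2496 of 13491). Days 12 and 15 alone gave 7 (6964 of 15128), and fits without 1 library 0 to 2 (965 to 2334 of all genes). For the hypoxia difference between stages (7 called), DESeq2 called 4, and 5507 of all 15760 genes. For the cell cycle classes (3 called), cells of 4000 to 12000 UMIs gave 1 (4439 of all 15057 genes), and fits without 1 library 1 to 4 (5636 to 6598 of all genes). Of the 5 genes most like RORA, 1 stayed among them with a mean of at least 1 CPM.

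Counts over all genes moved more. Between the lines 755 became 1489 with every gene kept, 46 with no day term, and 440 or 458 without the SW620-FLAG or SW620-TET2CD day 9 library. The interaction went from 0 to 15 with every gene kept, and location from 0 to 22 with DESeq2 and 472 with every gene kept. The bulk difference between lines went from 73 (51 higher, 22 lower) to 710 with DESeq2 (348 higher, 362 lower), 178 with upper-quartile scaling and 2239 with every gene kept. For the hypoxia classes 2302 became 965 without SW620-FLAG day 12, 1135 without SW620-FLAG day 15 and 1430 without SW620-TET2CD day 15, and DESeq2 moved the split from 1099 higher and 1203 lower to 1793 and 1082. On days 6 and 9 alone 4692 (2529 higher, 2163 lower) became 2731 with DESeq2 (1999 and 732). The cell cycle classes went from 6674 to 4439 in cells of 4000 to 12000 UMIs, and the TET2 classes from 3489 to 2105 with DESeq2 and 1990 without day 9. The cause was not tested. Without 1 of the 4 bulk libraries no residual degree of freedom was left, and no test was run. No analysis paired by replicate number was possible, because each condition has 1 library. The fits already hold the lines together by day and the cell classes by library, and the BHLHE40 call between the lines was lost with no day term (log2 -0.45, adjusted p = 1.00). Depth limits KLF9 (6 to 142 UMIs per library) most among the tested clock genes named.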
